A study of Mus musculus with 8 samples.

Results

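The genes described are 10 that start the interferon response: the ligands Ifnb1, Ifna4 and Ifng, the receptor chains Ifnar1, Ifnar2, Ifngr1 and Ifngr2, and the receptor kinases Jak1, Jak2 and Tyk2. They were taken by name from the array annotation and not by a threshold on their values, but with earlier results of these data known. The annotation assigned 18 probe sets to them, none shared with another gene, among 18193 genes that had a probe set of their own. Expression was measured on 8 Affymetrix arrays, each holding the stem cells of 1 C57/B6 mouse, sorted from fetal liver as negative for lineage markers and positive for Sca-1 and Kit. Of these arrays, 3 were from ADAR1 null mice (ADAR1 -/-), 3 from heterozygous mice (ADAR1 +/-) and 2 from wild-type mice. Heterozygous and wild-type arrays together are called the controls. The sources used here give neither the stage of gestation nor the make-up of the null allele.

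Interferons are secreted proteins that warn cells of infection. Type I interferons, among them interferon beta and the interferon alphas, bind a receptor of the chains IFNAR1 and IFNAR2, to which the kinases TYK2 and JAK1 are attached. Interferon gamma, the type II interferon, binds IFNGR1 and IFNGR2, which carry JAK1 and JAK2. The kinases then phosphorylate STAT proteins, which enter the nucleus and switch on interferon-stimulated genes. ADAR1 edits adenosine to inosine in double-stranded RNA, and in mice unedited RNA is known to be sensed by MDA5 (Ifih1), which leads to interferon production.

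All values are RMA intensities per probe set. The background of an array was set by the brightest of its 27 spots for bacterial transcripts that mouse cells lack. It lay at 7.40 to 9.29 linear units on null arrays, 6.20 to 6.98 on heterozygous arrays and 7.09 and 8.15 on wild-type arrays. Probe sets above it made up 40.0% to 46.4% of all on null arrays, 51.2% to 61.2% on heterozygous arrays and 45.6% and 51.5% on wild-type arrays. Intensities of different probe sets are on scales of their own, so levels are compared between arrays and never between genes. The 3'/5' signal ratio of Gapdh, which rises as RNA is shortened, was 7.45, 8.73 and 7.67 on null arrays, against 5.78, 4.78 and 9.0 on heterozygous and 4.39 and 4.32 on wild-type arrays. All null arrays were above both wild-type arrays in this ratio and within the heterozygous range, and its part in the differences from wild type was not tested. The stem cell markers fixed for the check were weakly lit: 3 of 7 were above background on every null array, 5 of 7 on every heterozygous array and 5 of 7 on every wild-type array. Kit, one of the sorting markers, read 9.33 to 13.3 units on null arrays, 13.2 to 23.5 on heterozygous arrays and 11.7 and 20.2 on wild-type arrays.

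Of the 18 probe sets, 0 passed an adjusted p of 0.05 in any comparison (limma over 45037 probe sets with Benjamini-Hochberg adjustment). Of all probe sets, 0.326% passed in null against wild type, 0.502% in null against heterozygous, 0.582% in null against all controls and 0.00222% in heterozygous against wild type. At an unadjusted p of 0.05, 2 of the 18 differed in null against wild type (7.63% of all probe sets did), 1 in null against heterozygous (11.3%), 1 in null against all controls (11.5%) and 1 in heterozygous against wild type (5.37%). The median difference of the 10 genes, by brightest probe set, was 0.13 log2 units when null was set against wild type, -0.06 with heterozygous and -0.01 with all controls as the comparison. Over all genes it was -0.000127, 0.06 and 0.03. The groups did not overlap in 3 of the 18 in null against wild type (19.6% of all probe sets), 3 in null against heterozygous (21.5%), 2 in heterozygous against wild type (29.2%) and 1, that of Ifnb1, in null against all controls (8.19%).

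**Figure D1:**
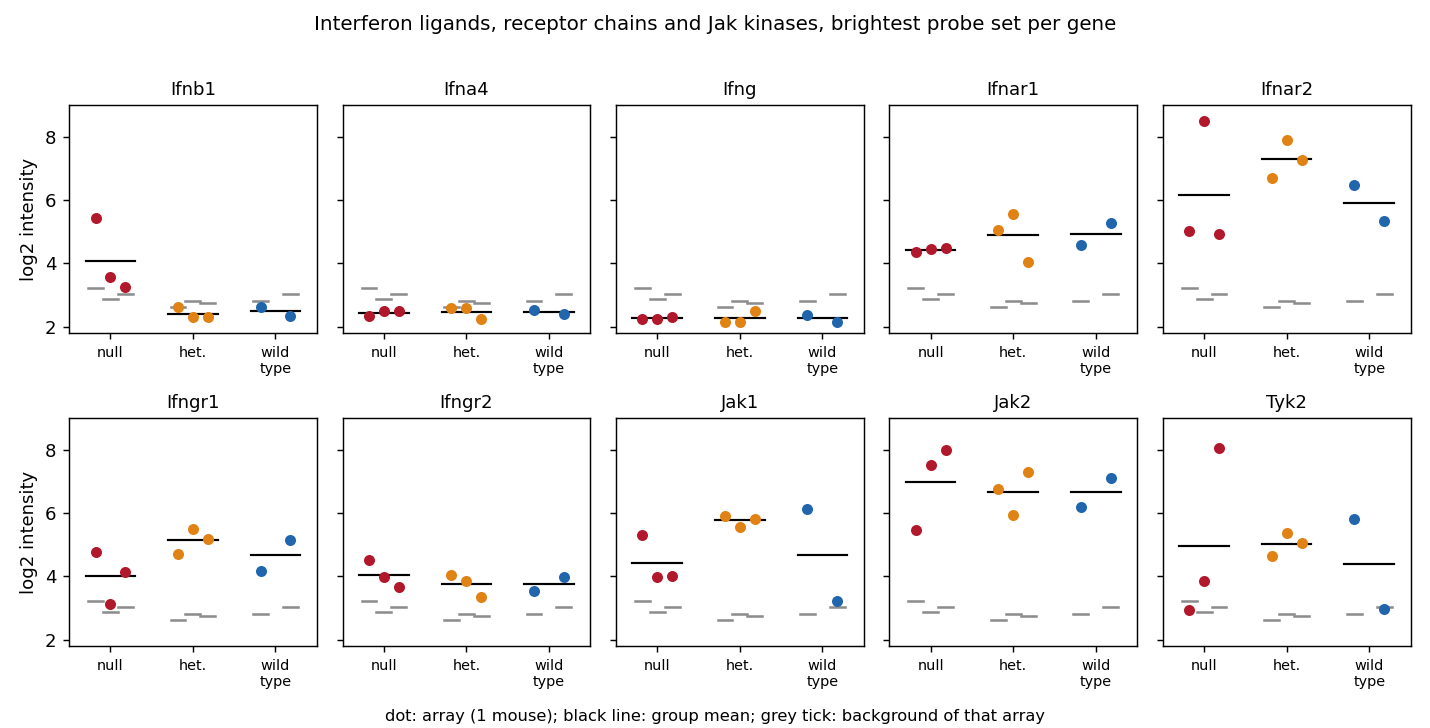
Log2 intensity of the brightest probe set of each gene (vertical axis) on null, heterozygous and wild-type arrays. Dots are arrays, black lines group means and grey ticks the background of each array. Ifnb1 is above background on the 3 null arrays alone, Ifna4 and Ifng are at background on all 8 arrays, and null and control arrays overlap for every receptor chain and kinase.

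The ligands are described first. Ifnb1, which encodes interferon beta, read 43.2, 11.8 and 9.51 units on the null arrays, against 6.11, 4.97 and 4.91 on heterozygous and 6.17 and 5.08 on wild-type arrays. All 3 null arrays were above their background and above each control array, and all 5 control arrays were at background. The first null array was the highest by far, and the other null arrays lay nearer to background. Because the controls had no measured level, the fold between group means is a bound set by background. The null mean was at least 2.42-fold above all controls, at least 2.56-fold above heterozygous and at least 2.23-fold above wild type. These bounds leave out the spread between arrays. With that spread, the interval of the fitted fold over all controls was 1.51 to 6.48. In the fit the difference from all controls was 1.64 ± 0.45 log2 units (SE, n = 3 and 5, interval 0.59 to 2.69), with an adjusted p of 0.234 and an unadjusted p of 0.00709 by limma. Against heterozygous it was 1.67 ± 0.54 (adjusted p = 0.348) and against wild type 1.60 ± 0.61 (adjusted p = 0.595), by limma. Without the first null array it was 0.97 against all controls (adjusted p = 0.0709 by limma). Over all alternatives the adjusted p against all controls ran from 0.0709 to 0.488. Heterozygous and wild-type arrays were both at background for Ifnb1.

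Ifna4, which in infected mouse cells is made early alongside interferon beta, read 5.06, 5.63 and 5.63 units on null arrays, against 6.03, 6.01 and 4.75 on heterozygous and 5.79 and 5.25 on wild-type arrays. No array was above background, so its transcript was not detectable at this signal in any group. The fitted difference of null from all controls was -0.03 ± 0.12 log2 units (interval -0.31 to 0.25, adjusted p = 0.940 by limma). Ifng, the gene of interferon gamma, read 4.78, 4.77 and 5.0 units on null arrays, against 4.47, 4.39 and 5.68 on heterozygous and 5.16 and 4.47 on wild-type arrays. It too was at background on all 8 arrays, with a difference from all controls of 0.01 ± 0.12 (interval -0.28 to 0.30, adjusted p = 0.979 by limma).

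Ifnb1 and Ifna4 lie on mouse chromosome 4, and their promoters are shown because 1 of these neighbouring type I ligands was above background in null cells and the other in no group. The windows run from 250 bases before to 50 after the gene start (RefSeq, GRCm38.p6, 5′ to 3′ on the strand of the gene). Ifnb1 is at chr4:88522745-88523044 on the minus strand and Ifna4 at chr4:88841566-88841865 on the plus strand. Capitals mark matches, on either strand, to GGGANNTTCC, an NF-kappaB site, to GAAANNGAAA, an interferon-stimulated response element read by STAT and IRF factors, and to TTCNNNGAA, a GAS element read by STAT dimers.
Ifnb1: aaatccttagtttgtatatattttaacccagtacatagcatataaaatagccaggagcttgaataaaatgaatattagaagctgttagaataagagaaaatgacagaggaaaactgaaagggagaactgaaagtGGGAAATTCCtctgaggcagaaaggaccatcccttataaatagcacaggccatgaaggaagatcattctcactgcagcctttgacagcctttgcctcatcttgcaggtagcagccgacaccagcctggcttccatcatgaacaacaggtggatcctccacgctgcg
Ifna4: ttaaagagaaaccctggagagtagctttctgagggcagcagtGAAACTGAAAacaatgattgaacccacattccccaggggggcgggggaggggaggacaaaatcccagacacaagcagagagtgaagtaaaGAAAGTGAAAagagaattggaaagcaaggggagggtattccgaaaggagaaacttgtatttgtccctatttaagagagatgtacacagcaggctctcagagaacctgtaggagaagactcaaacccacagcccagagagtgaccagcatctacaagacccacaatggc
The Ifnb1 window held 1 NF-kappaB match, starting 116 bases upstream, and no exact match to the other motifs. It does hold the letters GAAAACTGAAA, the same GAAA pair with a longer spacer, which the search did not count. The window is therefore not shown to lack response element sequence. The Ifna4 window held 2 response element matches, starting 208 and 118 bases upstream. Among 32851 windows of this length, 1.47% held the NF-kappaB letters, 3.44% the response element and 8.30% the GAS element. Over the 10 genes the counts were 2, 1 and 3. These are matches of letters and not measured sites.

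Further ligands were read from a list. Of 18 other interferon ligands, 7 had a probe set of their own, and 0 passed by limma in any comparison with null. Their median difference from all controls was 0.14 log2 units, against 0.03 over all genes. Ifnz, a type I ligand gene of the mouse, read 50.9, 12.3 and 26.6 units on null arrays, against 11.8, 9.84 and 8.37 on heterozygous and 11.7 and 23.7 on wild-type arrays. The null and wild-type ranges of Ifnz overlap, and its difference from all controls was 1.07 ± 0.49 (adjusted p = 0.463 by limma). It had the 1 unadjusted p under 0.05 of these ligands, in null against heterozygous. Of 3 probe sets shared among Ifna genes, 2 were above background on 1 array each and the other on 0. The highest reading among them was 4.18 log2 units on the second null array. The interferon alpha genes are close copies of each other, so which of them a probe set reads is uncertain.

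Markers of cells known as interferon sources were read beside the ligands. T and NK cell markers, the usual source of interferon gamma, were at background on every null array for 5 of 7 genes, on every heterozygous array for 3 of 7 and on every wild-type array for 6 of 7. Their summed intensity was 79.4 to 97.1 units on null arrays, 65.2 to 76.9 on heterozygous and 69.1 and 80.0 on wild-type arrays. Among markers of plasmacytoid dendritic cells, which secrete type I interferon, the sum was 1467 to 3661 units on null arrays, 81.1 to 180 on heterozygous and 145 and 162 on wild-type arrays. The 2 of these 6 markers that passed, Bst2 and Irf7, are themselves interferon-induced genes, as background. The list median was 1.22 log2 units in null against all controls. Tcf4, a transcription factor of these cells that other cells also express, read 517, 256 and 395 units on null arrays, against 132, 47.7 and 28.5 on heterozygous and 121 and 94.4 on wild-type arrays. Every null array was above every control array for Tcf4, but it did not pass (2.36 ± 0.54, adjusted p = 0.148, unadjusted p = 0.00254 by limma). Siglech, Ccr9 and Ly6d, the other markers, differed by 0.08, -0.03 and -0.05 log2 units from all controls. The part of such cells in the Ifnb1 reading was not tested. Macrophage markers summed to 52.5 to 62.7 units on null arrays, 174 to 332 on heterozygous and 127 and 661 on wild-type arrays, with 6 of 8 at background on every null array. Hepatocyte markers summed to 60.3 to 81.5 units on null arrays, 625 to 1101 on heterozygous and 200.0 and 617 on wild-type arrays. In sorted pools such as these, fewer cells of a type and less RNA per cell cannot be told apart.

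The type I receptor chains follow. Ifnar1, the chain that carries TYK2, read 20.5, 21.8 and 22.7 units on null arrays, against 33.5, 47.1 and 16.5 on heterozygous and 24.1 and 38.5 on wild-type arrays. It was above background on all 8 arrays. The null arrays lay close together and below both wild-type arrays, and inside the heterozygous range. The difference was -0.47 ± 0.33 log2 units from all controls (SE, interval -1.22 to 0.28, adjusted p = 0.602 by limma) and -0.50 ± 0.44 from wild type (adjusted p = 0.840 by limma). The second Ifnar1 probe set read 10.4, 7.81 and 6.68 units on null arrays, against 10.1, 8.67 and 7.41 on heterozygous and 13.4 and 15.4 on wild-type arrays. Both wild-type arrays were above all others on it. Null was lower than wild type by -0.82 ± 0.23 (adjusted p = 0.392, unadjusted p = 0.0100) and heterozygous by -0.73 ± 0.23 (adjusted p = 0.891, unadjusted p = 0.0167), by limma, and these did not pass. Null and heterozygous overlapped on that probe set (-0.09 ± 0.21).

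Ifnar2, the chain that carries JAK1 and binds interferon most tightly, varied more. Its brightest probe set read 32.7, 367 and 30.4 units on null arrays, against 104, 241 and 153 on heterozygous and 88.9 and 40.4 on wild-type arrays. The second null array was the highest of all 8 and the other null arrays were the lowest. The mean was 6.16 ± 2.05 log2 units in null (SD, n = 3), 7.29 ± 0.61 in heterozygous (n = 3) and 5.91 in wild type (n = 2). The difference from all controls was -0.58 ± 0.91 (SE, interval -2.69 to 1.54, adjusted p = 0.822 by limma). From wild type it was 0.25 ± 1.10 (adjusted p = 0.972 by limma), and -0.93 without the second null array. All 3 heterozygous arrays were above both wild-type arrays, by 1.39 ± 1.10 (adjusted p = 0.911 by limma). The second Ifnar2 probe set was at background on all 3 null arrays (5.19 to 7.87 units) and above it on 3 of 3 heterozygous (8.12 to 16.2 units) and 1 of 2 wild-type arrays (72.2 and 5.75 units). Its difference from all controls was -1.09 ± 0.77 (adjusted p = 0.610 by limma). The third read 5.09 to 7.99 units over all arrays, near background.

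The promoter of Ifnar2 is shown as that of the receptor chain with the widest range over the arrays (chr16:91372533-91372832, plus strand, RefSeq, GRCm38.p6). Capitals mark a GAS match starting 214 bases upstream.
Ifnar2: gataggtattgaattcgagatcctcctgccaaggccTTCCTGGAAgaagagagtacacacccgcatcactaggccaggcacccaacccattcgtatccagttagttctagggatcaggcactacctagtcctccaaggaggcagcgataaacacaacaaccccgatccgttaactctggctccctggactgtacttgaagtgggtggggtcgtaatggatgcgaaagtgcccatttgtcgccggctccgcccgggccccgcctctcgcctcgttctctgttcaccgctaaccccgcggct
Ifnar2, Il10rb, Ifnar1 and Ifngr2 are the 4 protein-coding genes of a stretch of chromosome 16. Il10rb, a chain of the interleukin-10 and lambda interferon receptors, differed by 0.08 ± 0.22 log2 units between null and all controls (adjusted p = 0.899 by limma). None of these 4 neighbours passed in any comparison.

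The type II receptor chains gave 1 lower and 1 higher mean. Ifngr1, which binds interferon gamma and carries JAK1, read 27.6, 8.77 and 17.5 units on null arrays, against 26.4, 45.7 and 36.2 on heterozygous and 18.2 and 35.8 on wild-type arrays. Of the null arrays, 2 were below every control array and the third fell inside the control range. The difference was -0.94 ± 0.42 log2 units from all controls (SE, interval -1.91 to 0.03, adjusted p = 0.449 by limma) and -1.12 ± 0.48 from heterozygous (interval -2.26 to 0.01, adjusted p = 0.443 by limma). Its mean was lower on null arrays, as were the macrophage and hepatocyte sums given above. The part of either cell type in the Ifngr1 reading was not tested. Ifngr2, which carries JAK2, read 23.0, 15.8 and 12.6 units on null arrays, against 16.5, 14.4 and 10.3 on heterozygous and 11.6 and 15.6 on wild-type arrays. The groups overlapped, with a difference from all controls of 0.30 ± 0.24 (interval -0.25 to 0.86, adjusted p = 0.645 by limma). The other Ifngr2 probe set differed by 0.20 ± 0.48 (adjusted p = 0.882 by limma).

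**Figure D2:**
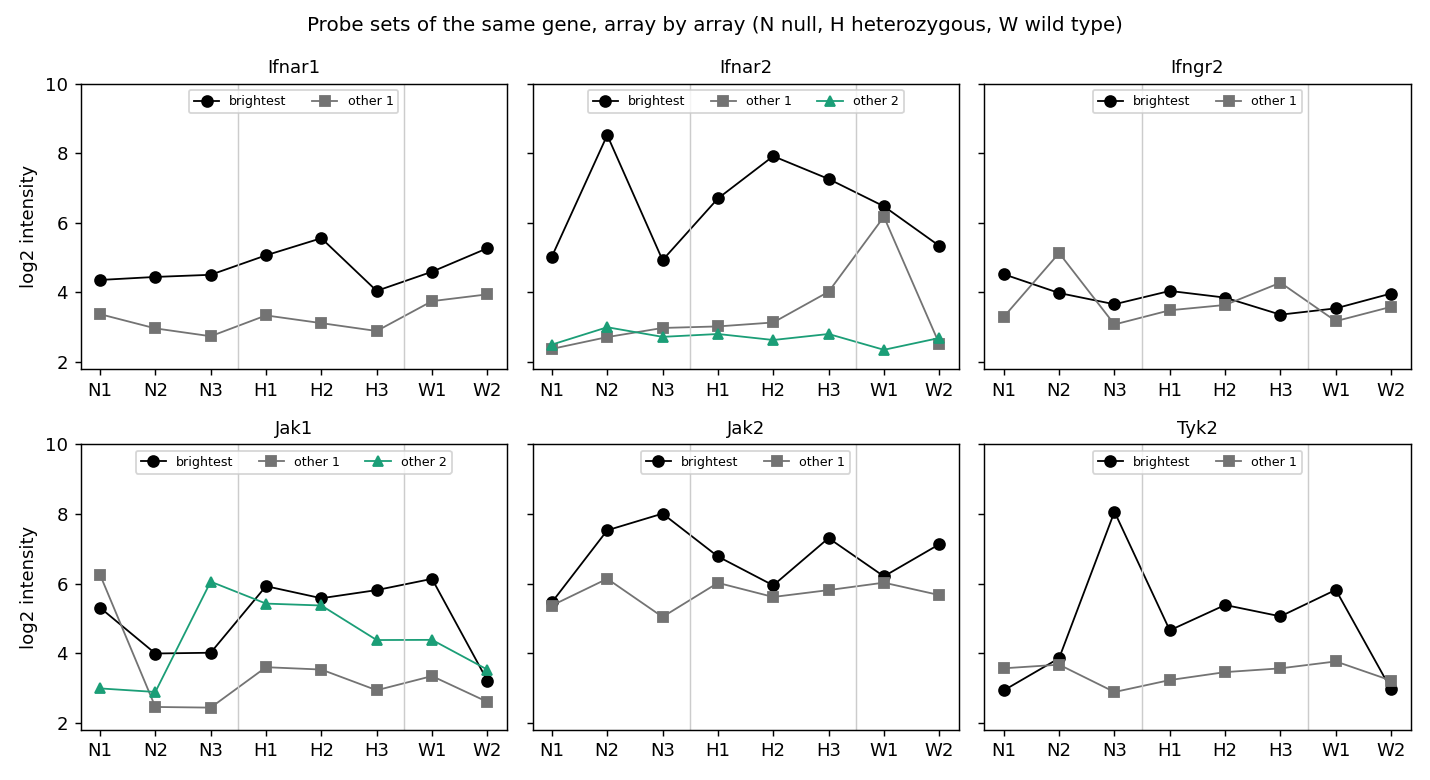
Log2 intensity (vertical axis) of every probe set of the 6 genes that have more than 1, on the 8 arrays (horizontal axis). Lines join readings of 1 probe set. On the second null array the Ifnar2 probe sets read 8.52, 2.71 and 3.0, and on the third null array the Tyk2 probe sets read 8.06 and 2.88.

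Among the kinases, Jak1, which serves both receptors, had 3 probe sets. The brightest read 39.6, 15.9 and 16.1 units on null arrays, against 60.8, 47.8 and 56.2 on heterozygous and 70.3 and 9.26 on wild-type arrays. All null arrays were below all heterozygous arrays, while the wild-type arrays lay on both sides of them. The difference was -1.34 ± 0.74 log2 units from heterozygous (SE, interval -3.10 to 0.43, adjusted p = 0.519 by limma) and -0.24 ± 0.83 from wild type (adjusted p = 0.965 by limma). Without the first wild-type array the difference from wild type was 1.22 and without the second it was -1.70, so 1 array set its direction. The other Jak1 probe sets disagreed with the brightest on single arrays. One read 76.5, 5.47 and 5.40 units on null arrays, against 12.1, 11.5 and 7.64 on heterozygous and 10.1 and 6.06 on wild-type arrays. The other read 7.92, 7.38 and 66.5 on null arrays, against 42.9, 41.3 and 20.8 on heterozygous and 20.8 and 11.5 on wild-type arrays. The first null array was the highest of all 8 on one of these, and the third null array on the other. Their differences from all controls were 0.52 ± 0.85 and -0.64 ± 0.79 (adjusted p = 0.830 and 0.771 by limma).

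Jak2, the kinase of the interferon gamma, erythropoietin and thrombopoietin receptors, was above background with both probe sets on every array. The brighter read 44.1, 185 and 258 units on null arrays, against 110, 61.7 and 158 on heterozygous and 73.8 and 140 on wild-type arrays. The null arrays held both the lowest and the highest reading. Their difference from all controls was 0.33 ± 0.59 log2 units (SE, interval -1.05 to 1.70, adjusted p = 0.847 by limma). The other probe set read 41.3, 70.4 and 32.9 units on null arrays, against 64.9, 49.0 and 56.2 on heterozygous and 65.1 and 50.9 on wild-type arrays, a difference of -0.31 ± 0.25 (interval -0.89 to 0.26, adjusted p = 0.645 by limma). The probe sets had opposite signs, and on the third null array one gave its highest reading and the other its lowest.

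Tyk2, the kinase bound to IFNAR1, had the widest range of the 18 probe sets, 5.13 log2 units. It read 7.62, 14.5 and 268 units on null arrays, against 25.2, 41.8 and 33.3 on heterozygous and 56.5 and 7.77 on wild-type arrays. The third null array was the highest of all 8, and the first null and second wild-type arrays were at background. The difference from all controls was 0.17 ± 1.17 (SE, interval -2.53 to 2.88, adjusted p = 0.964 by limma), and -1.38 without the third null array. Without that array the difference from wild type was -0.997, against 0.56 ± 1.55 with it. The other Tyk2 probe set read 11.8, 12.7 and 7.37 units on null arrays, against 9.35, 11 and 11.8 on heterozygous and 13.6 and 9.26 on wild-type arrays. The third null array was its lowest, and the difference from all controls was -0.07 ± 0.22 (interval -0.58 to 0.43, adjusted p = 0.913 by limma).

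**Figure D3:**
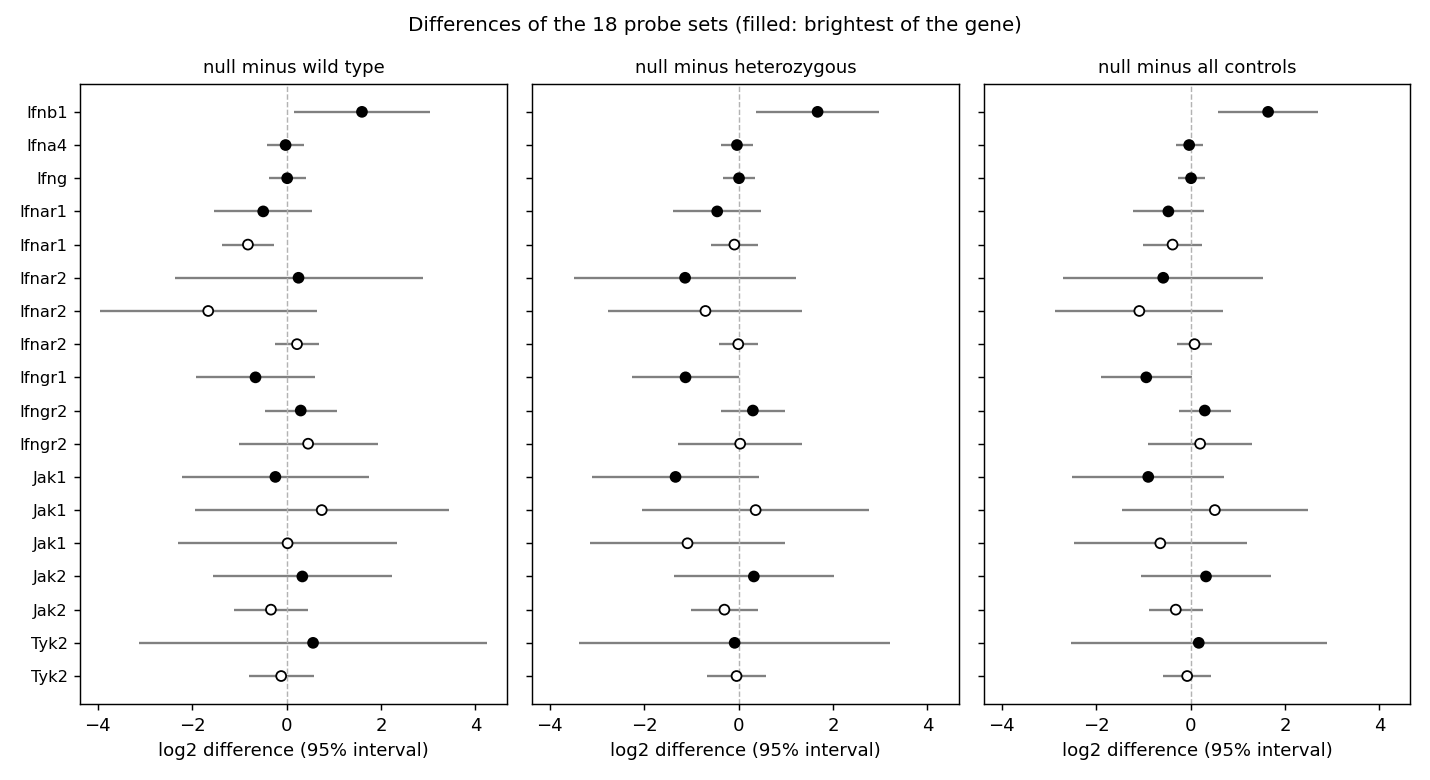
Differences in log2 intensity (horizontal axis) of the 18 probe sets, with 95% intervals from limma. Filled points are the brightest probe set of each gene. The interval of Ifnb1 lies above 0 in all 3 comparisons with null, that of the second Ifnar1 probe set lies below 0 against wild type, and every other interval covers 0.

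In heterozygous against wild type, which asks whether loss of 1 Adar copy moves these genes, the 3 ligands were at background in both groups and have no direction. Among the receptor chains and kinases the differences by brightest probe set ran from -0.04 log2 units for Ifnar1 to 1.39 for Ifnar2, with 1.10 ± 0.83 for Jak1 (adjusted p = 0.907 by limma) and 0.64 ± 1.55 for Tyk2 (adjusted p = 0.971 by limma). The smallest adjusted p among the 18 was 0.891. With 2 wild-type arrays the intervals stayed wide, as wide as -3.05 to 4.33 for Tyk2.

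Other genes of the pathway were read from lists for comparison: further ligands and receptor chains, signal transducers, negative regulators, sensors, targets, and cytokine receptors that use the same kinases. Of 92 such genes with a probe set of their own, 27 passed in null against all controls, 24 against heterozygous and 19 against wild type, and all were higher in null. Over all genes 0.555%, 0.456% and 0.390% were called higher in the 3 comparisons. In heterozygous against wild type 0 of 92 passed by limma, and 0.00% of all genes were called higher. At an unadjusted p of 0.05 by limma, 6 of the 92 differed there, 3 higher and 3 lower. Of all probe sets 5.37% did, a similar share. Against heterozygous the count fell to 12 without the first heterozygous array and 14 without the second. Against wild type it was 10 without the second wild-type array and 12 without the first heterozygous array, and 0 when null and wild-type arrays were fitted alone.

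Among the signal transducers Stat2, part of the complex formed below the type I receptor, read 127, 135 and 99.8 units on null arrays, against 8.03, 8.95 and 9.85 on heterozygous and 7.05 and 5.79 on wild-type arrays. It rose 15.3-fold over all controls (3.94 ± 0.20 log2 units, adjusted p = 0.000166 by limma), and at least 15.7-fold over wild type, which was at background. Irf9, the DNA-binding part of that complex, read 164, 72.6 and 76.4 units on null arrays, against 13.6, 14.0 and 10.7 on heterozygous and 9.38 and 18.3 on wild-type arrays. It rose 7.54-fold over all controls (2.91 ± 0.32, adjusted p = 0.00849 by limma) but did not pass against wild type alone (adjusted p = 0.0748). These were the 2 of 7 transducers that passed against all controls, and the list median was 0.32. Stat5a, a transducer of erythropoietin and other blood cytokines, read 24.2, 26.7 and 6.57 units on null arrays, against 137, 57.2 and 124 on heterozygous and 361 and 313 on wild-type arrays. Every null array was below every control array, at -3.32 ± 0.71 log2 units from all controls (adjusted p = 0.121 by limma), which did not pass.

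The promoter of Stat2 is shown as that of the transducer with the largest rise (chr10:128270248-128270547, plus strand, RefSeq, GRCm38.p6). Capitals mark a response element match on the opposite strand, starting 222 bases upstream.
Stat2: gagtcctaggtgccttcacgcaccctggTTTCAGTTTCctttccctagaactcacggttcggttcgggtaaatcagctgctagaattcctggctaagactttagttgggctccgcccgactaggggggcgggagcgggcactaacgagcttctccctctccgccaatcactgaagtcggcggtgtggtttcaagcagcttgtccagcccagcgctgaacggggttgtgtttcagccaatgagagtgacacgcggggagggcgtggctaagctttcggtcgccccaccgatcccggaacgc
Of the type I interferon targets below, 7 of 12 with a window held that motif, as did 2 of 7 transducers and 0 of the 7 receptor chains and kinases. Over all windows 3.44% held it, so 0 of 7 genes says little.

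Of 13 negative regulators 1 passed in each comparison with null. Usp18, which binds IFNAR2 and blocks the receptor, read 541, 688 and 374 units on null arrays, against 5.92, 5.16 and 4.99 on heterozygous and 6.61 and 8.18 on wild-type arrays. All 3 heterozygous arrays were at background, so null was at least 78.4-fold above heterozygous. The fitted difference from all controls was 6.42 ± 0.24 log2 units (adjusted p = 5.08e-05 by limma), but 1 of the 5 control arrays alone was above background, so its size is uncertain. Socs1, an inhibitor of the Jak kinases, read 7.43, 8.30 and 8.14 units on null arrays, against 5.76, 6.39 and 5.61 on heterozygous and 6.33 and 5.94 on wild-type arrays. Every null array read above every control array, and 8.19% of all probe sets did not overlap in that comparison. Socs1 was above background on the second null array alone, so the separation is largely between readings at background. It did not pass (0.41 ± 0.10, adjusted p = 0.189 by limma). The list median was -0.18.

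Of 19 sensors and inducers of interferon, 6 rose over all controls, where the list median was 1.48. Ifih1 (MDA5), a sensor of long double-stranded RNA, read 433, 1039 and 456 units on null arrays, against 8.72, 6.18 and 17.5 on heterozygous and 23.0 and 19.8 on wild-type arrays. It rose 44.1-fold (5.46 ± 0.51 log2 units, adjusted p = 0.00363 by limma). Irf7, the factor that drives most interferon alpha genes, read 249, 175 and 632 units on null arrays, against 6.39, 6.04 and 7.18 on heterozygous and 7.11 and 6.51 on wild-type arrays. Its fitted difference was 5.51 ± 0.37 (adjusted p = 0.000619 by limma), with 3 of 5 control arrays above background and all 5 close to it, so its size is uncertain. The other 4 were the RNA helicases Dhx58 (at least 16.1-fold) and Ddx58 (18.3-fold), the nucleic acid sensor Zbp1 (at least 17.1-fold) and the kinase Eif2ak2 (PKR, 6.71-fold). Irf3, which is present before infection and starts Ifnb1 transcription once phosphorylated, read 60.3, 36.9 and 34.5 units on null arrays, against 107, 127 and 91.4 on heterozygous and 86.1 and 179 on wild-type arrays. Every null array was below every control array, but the difference did not pass (-1.42 ± 0.29, adjusted p = 0.105 by limma). Tlr3, an endosomal RNA sensor, read 235, 456 and 17.1 units on null arrays, against 6.53, 7.36 and 12.7 on heterozygous and 8.94 and 8.24 on wild-type arrays (3.84 ± 0.95, adjusted p = 0.175 by limma).

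**Figure D4:**
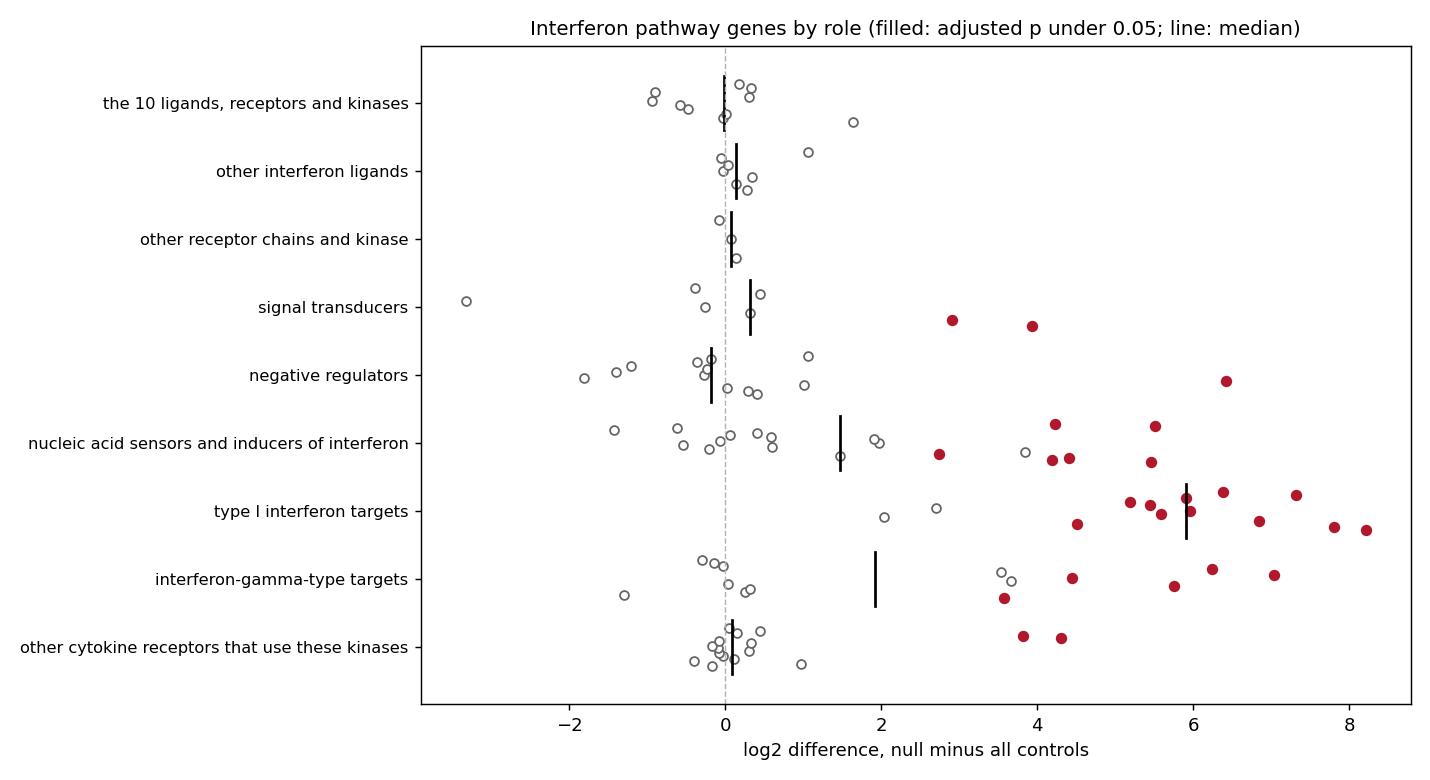
Log2 difference of null from all controls (horizontal axis) for each measured gene of the lists, by brightest probe set. Filled points passed an adjusted p of 0.05, and lines mark medians. The 10 ligands, receptor chains and kinases sit around a median of -0.01 with 0 called, while the type I targets have a median of 5.91 with 11 of 13 called.

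Known targets of the pathway were read as well, and whether their changes came through these receptors was not tested. Of 13 type I targets 11 rose over all controls, with a median of 5.91 log2 units. Rsad2 read 4327, 6054 and 1856 units on null arrays, against 7.49 to 20.2 on control arrays, and Ifit1 read 707, 3817 and 1549, against 6.78 to 7.60. The null array with the most Ifnb1, the first, had the least Ifit1 of the 3 and an intermediate level of Rsad2. Cxcl10, a chemokine induced by all interferons, had the order of Ifnb1 on the null arrays, at 773, 320 and 88.8 units, against 4.77 to 5.57 on control arrays. An order of 3 arrays can match by chance, and a link of any target to the Ifnb1 level was not tested. Of 14 targets usually credited to interferon gamma 5 rose over all controls, with a median of 1.93. They were Iigp1 (at least 100.1-fold), Igtp (at least 57.1-fold), Cxcl10 (at least 40.0-fold), Gbp3 (21.9-fold) and Irf1 (11.9-fold), of which several are known to answer to type I interferon too. Ciita, the master factor of MHC class II, read 9.15, 6.01 and 5.83 units on null arrays, against 5.20 to 6.66 on control arrays (0.26 ± 0.18, adjusted p = 0.604 by limma). Cxcl9, a chemokine that answers chiefly to interferon gamma, was at 7.33, 5.03 and 9.28, against 5.0 to 6.24 (0.32 ± 0.20, adjusted p = 0.567 by limma). Both stayed near background, as Ifng did.

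**Figure D5:**
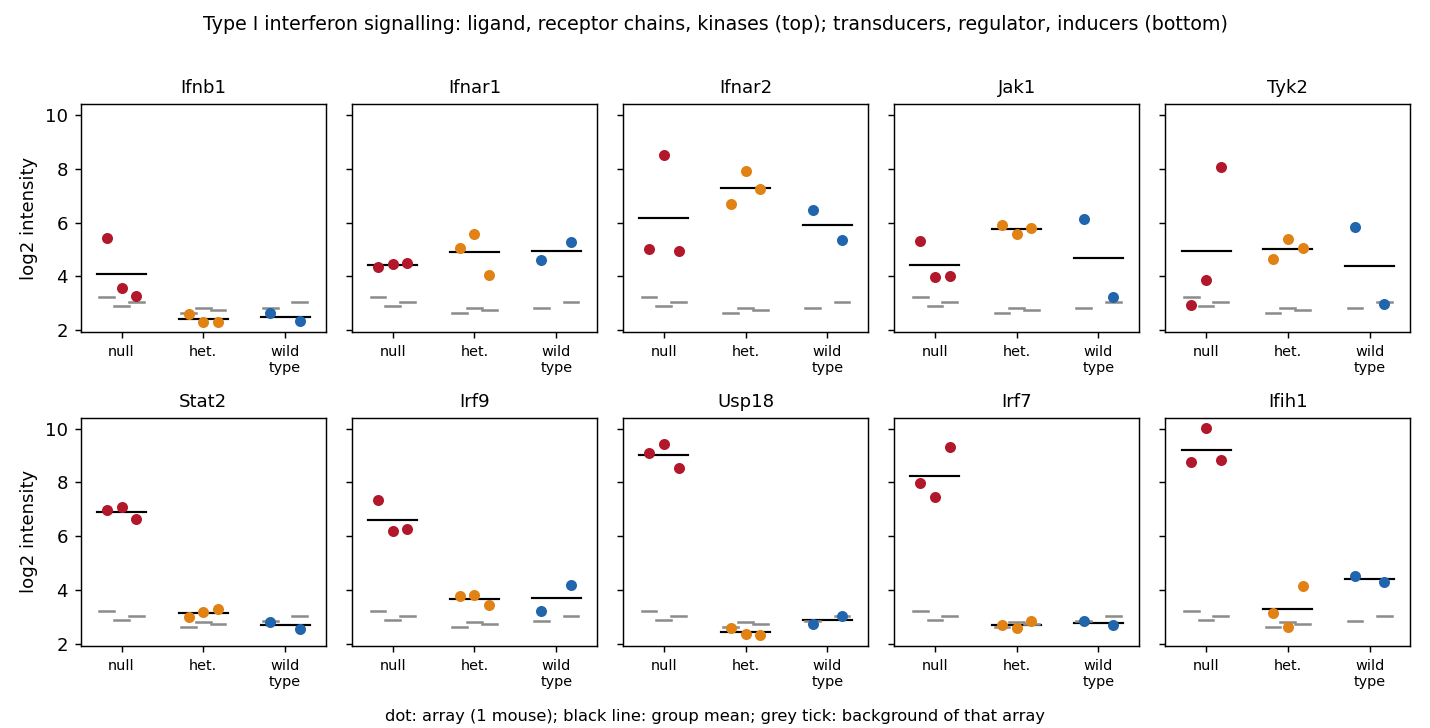
Log2 intensity (vertical axis) of genes of type I signalling on null, heterozygous and wild-type arrays. Dots are arrays, black lines group means and grey ticks background. In the upper row only Ifnb1 separates the 3 null arrays from all controls, and in the lower row Stat2, Irf9, Usp18, Irf7 and Ifih1 each do.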

How the data were processed

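Messenger RNA of sorted fetal liver stem cells was measured on 8 arrays, 1 mouse each, labelled in 1 colour. The authors' files hold intensity on a linear scale, summarised per probe set with RMA per the submitters' processing notes. Its version is not given in the sources used here. RMA borrows strength across arrays and can compress dim probe sets, so differences near background may be understated. The size of this effect was not tested here.

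Log2 was taken of the deposited intensity values. Of 45101 probe sets, 64 controls were left out and 45037 tested. The annotation named 1 gene for 34945, several for 932 and none for 9160, and 34741 symbols were matched by gene number to RefSeq (GRCm38.p6). A gene is described by its brightest probe set, by mean log2 over 8 arrays. Groups came from the sample titles. A linear model of 3 groups (limma 3.58.1, R 4.3.3, with 5 residual degrees of freedom) compared the genotypes in pairs. A model of 2 groups (with 6) set null against the pooled controls. These comparisons share arrays. Tests were two-sided, adjusted p-values (Benjamini-Hochberg, every probe set tested) were held to 0.05, and intervals are at 95%. Error terms of differences are limma standard errors. The fit was checked on simulated data. Where a group was at background on every array, the fold is at least the bright mean over the background level. Such a bound covers the unmeasured level and not the spread between arrays. Named genes were every member, up to 6 called genes per pathway list and up to 3 uncalled ones, and the 3 genes most alike each member in level across arrays. Members and lists were chosen with earlier results of these data known. Alternatives were quantile normalization, a pseudocount of 32, a filter at the median level, fits of the compared groups alone, array weights, the mean of probe sets and leaving out each array. The number of arrays limits the precision.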

Additional observations from a re-analysis of the deposited data

Results flagged for a closer look

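Among the 18 probe sets, each screened over its 5 control arrays, 1 had an array apart from the rest. The brightest Jak1 probe set read 3.21 log2 units (9.26 linear units) on the second wild-type array, while the other 4 control arrays read 5.58 to 6.14. The gap took 0.809 of the range of the controls. The cut-off of this screen is passed by chance in about 5% of groups, and 18 were screened, so 1 such array can arise by chance. On the same array the other Jak1 probe sets read 2.60 and 3.53 log2 units, both the lowest of the controls, and Tyk2 was at background. Without that array, heterozygous minus wild type for Jak1 was -0.36 in place of 1.10 log2 units.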

How the results depend on the processing

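No probe set of the 10 genes passed under any alternative run. Ifna4 and Ifng lay below the filter at the median level and have no value there. Of 526 alternative values of member differences, 520 kept their direction or shifted by under 1 standard error, 5 reversed and 1 moved. The 520 also kept their side of the threshold where a test was run, which leaves out the means of probe sets. The cause of the changes was not tested. The 5 reversals came from leaving out 1 array, over ranges of -1.70 to 1.22 log2 units for Jak1 in null minus wild type, -0.36 to 2.56 for Jak1 in heterozygous minus wild type, -0.93 to 0.87 for Ifnar2 in null minus wild type, and -0.997 to 1.99 (null minus wild type) and -1.38 to 1.18 (null minus all controls) for Tyk2. With the mean of its probe sets Ifnar2 differed by 0.22 in heterozygous minus wild type. Pathway genes past the threshold in null minus wild type numbered 19, but 7 with the pseudocount, 0 with those groups alone and 10 to 26 with 1 array left out. In null minus heterozygous they numbered 24, but 12 with the pseudocount and 12 to 29 with 1 array left out. In heterozygous minus wild type they numbered 0, and 0 to 1 with 1 array left out, the 1 being Tlr7 (-1.86, adjusted p = 0.0450 by limma without the first wild-type array). Over all probe sets, 147 passed in null minus wild type, but 62 with the pseudocount, 4 with those groups alone, 90 with array weights and 65 to 340 with 1 array left out. In null minus heterozygous 226 passed, 126 with the pseudocount and 63 to 581 with 1 array left out. In null minus all controls 262 passed, and 156 to 792 did with 1 array left out. In heterozygous minus wild type 1 passed, 5 with the pseudocount, 0 with the filter or those groups alone and 0 to 164 with 1 array left out. A group left with 1 array is assumed to vary like the others. No paired analysis was possible because the labels give no replicate numbers shared between groups.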

Other observations

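Other cytokine receptors that use Jak1, Jak2 or Tyk2 were read from a list of 19, of which 16 had a probe set of their own. Against all controls 2 rose, and the list median was 0.09 log2 units, against 0.03 over all genes. Csf2rb, the shared signalling chain of the receptors for GM-CSF, interleukin-3 and interleukin-5, which carries JAK2, read 121, 145 and 291 units on null arrays, against 6.48, 7.89 and 12.7 on heterozygous and 6.51 and 11.6 on wild-type arrays. It rose 19.8-fold over all controls (4.31 ± 0.36, adjusted p = 0.00207 by limma). Csf2rb2, the mouse interleukin-3 receptor chain of closely similar sequence, read 228, 330 and 49.7 units on null arrays, against 11, 15.1 and 7.15 on heterozygous and 9.57 and 13.9 on wild-type arrays (14.2-fold, adjusted p = 0.0403 by limma). Probe sets of such close copies may read both. Epor, the erythropoietin receptor, differed by 0.45 log2 units (adjusted p = 0.532 by limma) and the gp130 chain Il6st by 0.97 (adjusted p = 0.781 by limma).

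The genes most alike in level were sought for the 6 members above background on all 8 arrays, among 7057 other genes, as a description over 8 arrays that share their overall differences in signal. The closest was Mosmo for Ifnar2 (Pearson r = 0.965), Mrpl35 for Jak1 (0.962), Pigu for Ifngr2 (0.952), Tesmin for Jak2 (0.947), Fbxo36 for Ifnar1 (0.929) and Cox7a2 for Ifngr1 (0.927). How high the best of 7057 genes reaches by chance over 8 arrays was not tested. No member was among the 3 genes closest to another member, which says little with so many genes searched.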
